A study of Mus musculus with 18 samples.

Results

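Intrahepatic cholangiocyte organoids (ICO), cultures of bile duct epithelium grown as hollow structures in gel, were compared after 7 days in Matrigel with and without hepatic stellate cells (HSC) in the same gel. The comparison takes in 6 of the 18 mouse libraries of the series, chosen by their labels: 3 libraries of ICO sorted from the co-culture and 3 of ICO cultured alone. A further 3 libraries, those of HSC sorted from the same co-culture, served as the measure of stellate RNA. The organoids of both groups carried the fluorescent tag dTomato, and the HSC came from healthy wild-type mice. The Matrigel cultures shared a medium that mixed DMEM containing serum with AdvDMEM/F12, to which the growth factors HGF, EGF, FGF10, RSPO3 and gastrin, the supplements N2 and B27, nicotinamide and N-acetylcysteine were added. The labels give neither strain, age and sex nor the number of organoid lines or animals. They number the replicates 1 to 3 in each group without saying that these came from separate cultures, so the p-values below reflect the variation among these particular libraries, which may be technical.

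Cholangiocytes line the bile ducts, where they secrete fluid and bicarbonate, and after injury they can proliferate, release chemokines and act as progenitors. Stellate cells store retinoid in the quiescent state and deposit fibrillar collagen once activated. In the duct niche the epithelium and the mesenchyme exchange ligands of the PDGF, TGF-beta, BMP, Wnt, EGF and HGF families, while oxygen supply, matrix and soluble factors set much of the epithelial programme.

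Expression was measured by bulk Smart-seq2, in which full-length cDNA is amplified before sequencing. Total estimated counts were 11036745 to 13162081 in the libraries of ICO alone and 14599893 to 19473165 in those from co-culture, so that each co-culture library was deeper than each library alone. Genes with at least 1 count numbered 19114 to 20669 per library. Mitochondrially encoded transcripts took 6.55% to 8.26% of counts alone and 5.22% to 9.20% in co-culture, and none of their 13 genes passed the test (3 were lower without co-culture replicate 3). Spearman correlations across genes were 0.986 to 0.990 within a group and 0.971 to 0.979 between groups. Levels below are normalised counts in CPM, the counts scaled to a common library size after TMM scaling over the 6 ICO libraries, given for replicates 1, 2 and 3 in that order. Differences are fitted log2 fold changes, co-culture against alone, ± their standard error (SE), and a gene is said to have been called, or to have risen or fallen, where the adjusted p of edgeR's quasi-likelihood test was under 0.05.

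Organoids from co-culture differed from organoids alone in 16.6% of the genes tested, and bile duct markers were high in both. Of the 13726 genes tested 8.59% rose and 7.96% fell. Cell cycle genes were lower, with 32 of 34 called, as were many genes of cholesterol synthesis (14 of 24), serine and one-carbon metabolism (13 of 25) and chemokine production (14 of 31). Genes of the hypoxia response and glycolysis were higher, with 22 of 28 called. The protease gene Mmp7 was among the genes with the largest increases, and the protease inhibitor gene Serpine2 and the monocyte chemokine gene Ccl2 were among those that fell.

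The label of the cells was first set against bile duct markers. Krt19, a keratin of bile duct epithelium, had 1552, 1558 and 1394 CPM alone and 1613, 2091 and 1631 CPM in co-culture. Epcam, an epithelial adhesion molecule, had 1207, 1099 and 1134 CPM alone and 1492, 1411 and 1320.1 CPM in co-culture, and Spp1, the secreted phosphoprotein osteopontin, had 10463, 8438 and 9627 CPM alone against 7062, 9969 and 6736 CPM in co-culture. All 6 libraries held high levels of these markers. Krt19 and Epcam were somewhat higher in every co-culture library than in every library alone, as were 16.6% of all genes tested, and the Spp1 libraries overlapped. None of these 3 genes was called, with adjusted p of 0.19 for Krt19, 0.0596 for Epcam and 0.303 for Spp1. The Epcam difference of 0.30 ± 0.10 was called by DESeq2 (adjusted p = 0.00372), without the low-count filter (0.0232) and without co-culture replicate 3 (0.0306), and Spp1 was called without co-culture replicate 2 (0.0163). Krt7 (0.15 ± 0.11, adjusted p = 0.405), the junction cadherin Cdh1 (0.03 ± 0.09, adjusted p = 0.861) and the biliary transcription factor Sox9 (0.08 ± 0.10, adjusted p = 0.656) were likewise not called.

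Of a list of 28 bile duct epithelial genes, all tested, 5 rose and 3 fell. These were 17.9% and 10.7%, against 8.59% and 7.96% of all genes tested. The median difference of the list was 0.13 on the log2 scale, and that of all genes tested 0.00. The largest of the increases was that of Elf3, an epithelial transcription factor of the ETS family, which had 269.7, 332 and 281 CPM alone and 705, 681 and 661 CPM in co-culture. The Elf3 libraries did not overlap between the groups, and the difference was 1.21 ± 0.10, adjusted p = 2.77e-07. The tight junction claudin Cldn4 rose by 0.57 ± 0.09 (adjusted p = 0.000383). The keratins Krt8 and Krt18, which pair in simple epithelia, were lower at -0.47 ± 0.13, adjusted p = 0.0207 and -0.41 ± 0.14, adjusted p = 0.0453, as was the endodermal factor Foxa2 at -0.35 ± 0.11, adjusted p = 0.0444. The Krt18 call was lost in 5 and the Foxa2 call in 4 of the 6 fits with a library left out. The Krt8 call was lost without alone replicate 1 (0.123), alone replicate 2 (0.0931) or co-culture replicate 1 (0.105), and the number of lower genes in the list was 0 to 3 when single libraries were left out.

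Stellate RNA in the organoid libraries was then measured. For each ICO library a stellate share was taken as the median, over 21 stellate and mesenchymal genes with at least 100 CPM in every co-culture HSC library, of its CPM divided by the mean CPM of those HSC libraries. The share was 0.483%, 0.108% and 0.0667% in the libraries alone and 0.326%, 0.360% and 0.654% in co-culture. On this reference the groups overlapped, with means of 0.219 ± 0.229% and 0.447 ± 0.180% (SD, n = 3 each), and an exact two-sided permutation test gave p = 0.3, where 0.1 is the smallest that 3 against 3 libraries allow. The overlap depended on the reference and on how the share was taken. With genes at 10 CPM or more as the reference, the groups still overlapped. Their means were then 0.320% alone and 0.404% in co-culture (exact p = 0.7). With the mean over genes in place of the median, the groups did not overlap (exact p = 0.1). A further choice, added after the data were seen, used a different reference for each group. ICO alone, which had no HSC in their gel, were set against HSC cultured alone in Matrigel, and ICO from co-culture against co-culture HSC. The shares alone were then 0.324%, 0.209% and 0.0266%, all below the co-culture shares, the lowest of which was 0.326% (exact p = 0.1). Against HSC cultured alone in Matrigel, the co-culture shares were 1.39%, 1.06% and 1.69%, again without overlap (exact p = 0.1). The HSC libraries held epithelial transcripts themselves, with Epcam at a mean of 412 CPM in HSC from co-culture and 219 CPM in HSC cultured without organoids, against 1408 ± 85.8 CPM in the ICO from co-culture. Multiplying the share by the HSC level can therefore overstate the stellate part for epithelial genes.

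The stellate transcripts differed in kind between the groups. Col3a1, a fibrillar collagen chain, had 0.45, 0.163 and 0 CPM alone and 23, 20.6 and 50.1 CPM in co-culture. Col1a1, a chain of type I collagen, had 1.72, 0.735 and 2.23 CPM alone against 10.8, 12.1 and 23.8 CPM in co-culture, and Col1a2, its partner chain, 0.6, 0.653 and 0 CPM alone against 6.43, 6.42 and 15 CPM in co-culture. All 3 collagens were called higher, with differences of 7.12 ± 0.62, 3.32 ± 0.38 and 4.41 ± 0.56. Dcn, a proteoglycan of mesenchymal matrix, followed another pattern, with 30.4, 36.6 and 0 CPM alone and 7.85, 11 and 17.6 CPM in co-culture. Dcn was highest in alone replicates 1 and 2 and at 0 in alone replicate 3, and its difference was -0.88 ± 1.30, adjusted p = 0.738 (0.00149 and lower in co-culture without alone replicate 3). HSC from the co-culture had mean levels of 11492 CPM of Col3a1 and 5179 CPM of Dcn, whereas HSC cultured alone in Matrigel had 749 and 24355 CPM. Dcn exceeded Col3a1 in alone replicates 1 and 2, as it did in HSC cultured alone, and Col3a1 exceeded Dcn in all 3 co-culture libraries, as it did in HSC from co-culture. How stellate transcripts came into organoids cultured without HSC was not tested.

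For each gene that rose, the stellate share times the level in co-culture HSC was set against the size of the increase. Of the 1179 genes that rose, 1156 had a product under 10% of their increase, 14 a product of at least 50%, and 11 of at least 100%. Those 14 genes, chosen by that product, were Col1a1, Col1a2, Col3a1, Col5a1, Sparc, Acta2, Tagln, Lox, Loxl1, Tnc, Ccdc80, Frzb, Cxcl14 and Rarres2, most of them matrix or contractile genes of fibroblasts. Of the 14, 7 were also among the 21 genes from which the share was taken. The share was then subtracted, with HSC cultured alone in Matrigel as the reference for ICO alone and co-culture HSC for ICO from co-culture. Subtraction removes the increase of such genes by construction. Over all genes, those called after subtraction numbered 1162 higher and 1101 lower. Other members of the stellate list had levels far above the share: Gas6, the ligand of the TAM receptors, had 560.4, 603 and 570.4 CPM alone and 779.8, 754 and 872 CPM in co-culture, which exceeds its mean of 275 CPM in the co-culture HSC. Of the 19 stellate and mesenchymal genes tested, 9 rose and none fell, with a median of 1.25. Without alone replicate 3, the library in which Dcn was at 0, 6 members fell as well.

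**Figure D1:**
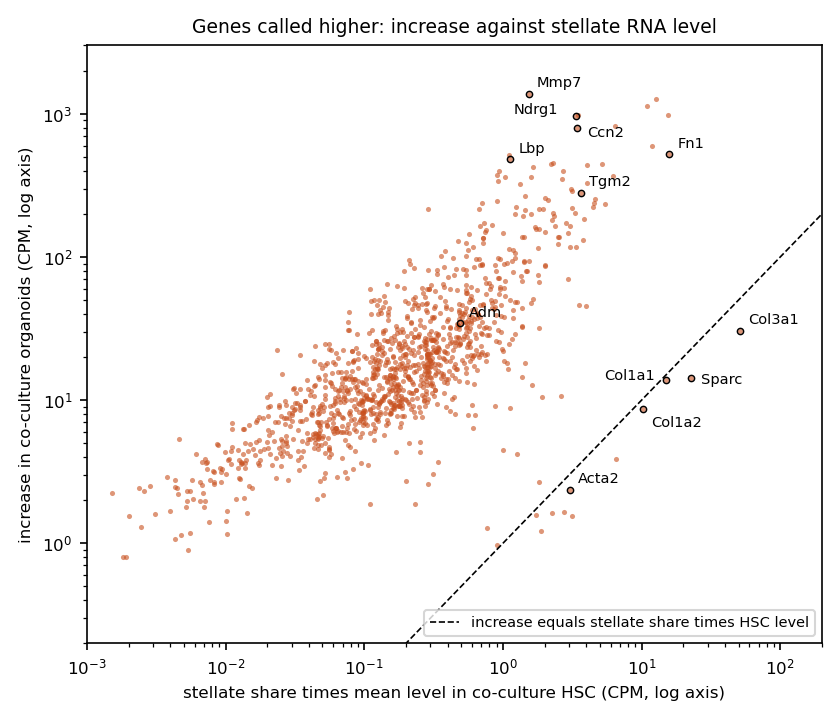
Each point is a gene called higher in organoids from co-culture, with its increase in CPM (vertical, log axis) against the stellate share times its mean level in co-culture HSC (horizontal, CPM, log axis), and the dashed line marks equality. Col3a1, Col1a1, Col1a2, Sparc and Acta2 lie below or at the line, while Mmp7, Ndrg1, Lbp and Ccn2 lie far above it.

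Markers of other liver cells were summed over lists of genes. Hepatocyte transcripts summed to 396 to 447 CPM alone and to 791 to 870 CPM in co-culture, without overlap (exact two-sided permutation p = 0.1, adjusted 0.16 over 8 such sums). Macrophage transcripts summed to 13.9 to 58.4 CPM alone and 26.4 to 31.1 CPM in co-culture (exact p = 0.6), endothelial ones to 28.3 to 32.5 and 35.6 to 39.5 CPM (0.1), and lymphocyte ones to 2.04 to 2.47 and 0.510 to 1.60 CPM (0.1). Counts were 0 in all 6 libraries for 9 of the 34 hepatocyte genes, Cps1, Cyp1a2 and Apoa2 among them, for 3 of the 18 macrophage genes, the Kupffer cell genes Clec4f, Marco and Timd4, for 5 of the 18 endothelial genes, Cdh5 and Tek among them, and for 3 of the 12 lymphocyte genes. Single members of these lists rose: the lysosomal protein gene Cd68 (0.87 ± 0.22, adjusted p = 0.00902), the VEGF receptor gene Flt1 (1.19 ± 0.24, adjusted p = 0.00203) and the portal fibroblast and epithelial ectonucleotidase gene Entpd2 (1.02 ± 0.16, adjusted p = 0.000265). The part of these cell types in the results below was not tested. In bulk libraries fewer cells of a type and less RNA per cell cannot be told apart, and this holds for each difference below.

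Across all genes, 1179 rose and 1093 fell, together 16.6% of the 13726 tested. At least 2-fold differences were found in 211 genes that rose and 310 that fell, or 1.54% and 2.26%. The middle 80% of all fitted differences lay between -0.53 and 0.51. Leaving out alone replicate 1 reduced the calls to 763 higher and 664 lower, and leaving out co-culture replicate 1 to 785 and 721. When the spread was estimated over the 12 Matrigel libraries, HSC included, 117 genes were called higher and 92 lower, and over all 18 libraries 308 and 238.

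Where libraries did not overlap and the group with more expression averaged at least 10 CPM, the large increases other than those of Col3a1 and Col1a1 included Mmp7. Mmp7, the epithelial protease matrilysin, had 60.3, 87.5 and 137 CPM alone and 1583, 1841 and 1120.5 CPM in co-culture. The groups lay far apart although replicates varied within each, and the difference was 4.0 ± 0.39, adjusted p = 0.00246. Lypd8l, a member of the LY6/PLAUR domain family, differed by 3.05 ± 0.24 and rose from 3.07, 4.24 and 2.14 to 20.6, 28.3 and 29.8 CPM. Further genes with large increases were Adm, Sparc, Rasa4, Vsir, Lims2, Gpc3, Otop3, Ly6d, Fga and Cidea, with differences between 2.03 and 2.59. The Sparc call was lost without alone replicate 2 (adjusted p = 0.11). For Sparc the stellate share times its level in co-culture HSC, 22.7 CPM, exceeded its increase of 14.3 CPM. Gpc3, a cell surface heparan sulfate proteoglycan, had 3.52, 9.87 and 7.3 CPM alone and 27.8, 36.1 and 30.3 CPM in co-culture.

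The largest decreases included Olfm4, a marker of intestinal crypt stem cells, with 79.1, 33.7 and 49.1 CPM alone and 8.99, 7.22 and 10.2 CPM in co-culture (-2.61 ± 0.30, adjusted p = 0.000396). Serpine2, the protease nexin that inhibits thrombin and urokinase, had 323, 243 and 256 CPM alone and 38.4, 52.7 and 51.6 CPM in co-culture, a difference of -2.53 ± 0.13, adjusted p = 5.56e-09. The lowest library alone was well above the highest from co-culture for both genes. Axl, a receptor of Gas6, fell from 46.5, 21.1 and 34.8 to 6.37, 8.24 and 10.4 CPM (-2.03 ± 0.26, adjusted p = 0.00013). Others among the 15 largest decreases were Inpp4b (-2.46 ± 0.35), a phosphoinositide phosphatase, Ppbp (-2.22 ± 0.25), a platelet-type CXC chemokine, Ch25h (-1.92 ± 0.33), which makes 25-hydroxycholesterol, and Pglyrp3 (-1.81 ± 0.22), a peptidoglycan recognition protein.

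**Figure D2:**
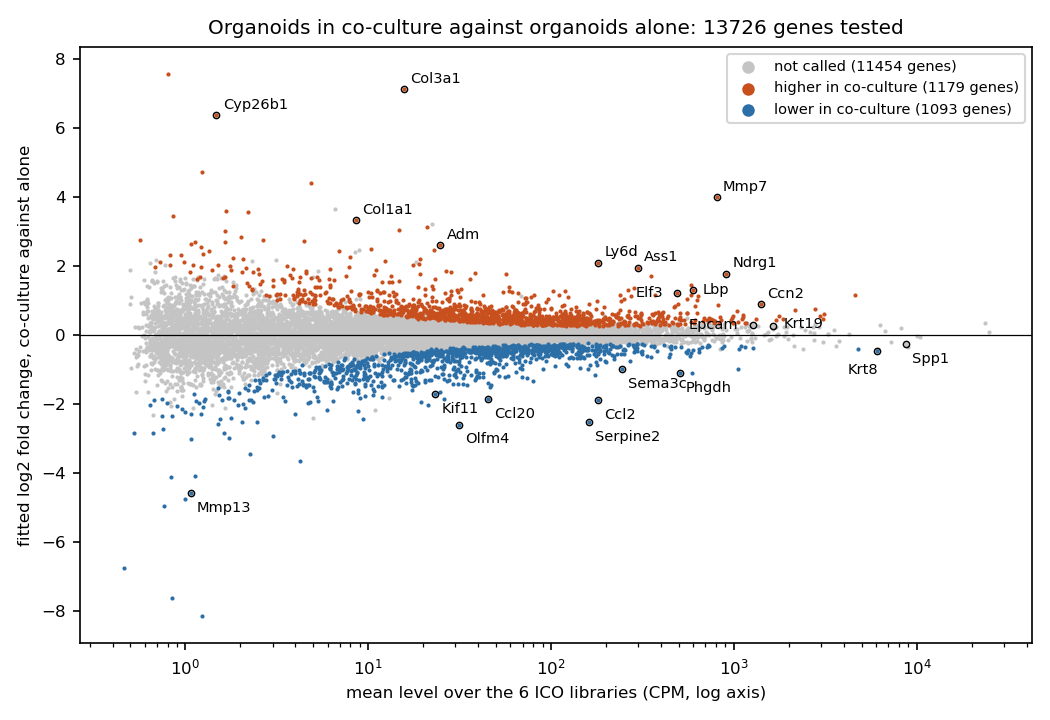
Each of the 13726 points is a gene, with its mean level over the 6 ICO libraries (horizontal, CPM, log axis) and its fitted log2 fold change, co-culture against alone (vertical). Orange points are the 1179 genes called higher, blue points the 1093 called lower and grey points genes not called, and Mmp7 stands out among abundant genes.

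Cell cycle genes fell almost throughout. Of 34 genes of DNA replication and mitosis, 32 fell and none rose, with a median of -1.10. Mki67, the antigen Ki-67 of cycling cells, had 24.7, 22.3 and 18.7 CPM alone and 8.51, 6.34 and 15.4 CPM in co-culture (-1.11 ± 0.25, adjusted p = 0.00701). Kif11, a motor of the mitotic spindle, had 31.8, 42.1 and 33.6 CPM alone against 10.2, 8.68 and 13.6 CPM in co-culture (-1.72 ± 0.18, adjusted p = 3.41e-06). For both genes the co-culture libraries lay below the libraries alone, with co-culture replicate 3 the highest of its group. Rrm2, a subunit of ribonucleotide reductase, differed by -1.34 ± 0.10, adjusted p = 7.89e-08, the replicative helicase subunit Mcm5 by -1.25 ± 0.15, adjusted p = 1.53e-05, and the mitotic kinase Aurkb by -1.40 ± 0.22, adjusted p = 0.00031. Ccne1, the cyclin of the entry into S phase, fell from 19.2, 14.7 and 14.7 to 4.23, 5.32 and 6.2 CPM. The 2 members that were not called were Foxm1 (-0.73 ± 0.29, adjusted p = 0.0971) and E2f1 (0.17 ± 0.19, adjusted p = 0.602), both transcription factors of cycling cells. The number that fell was 31 to 33 when any 1 library was left out, and 5 when the spread was estimated over 12 libraries.

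The promoter of Mki67 is shown because it holds both elements commonly found before cell cycle genes, the CCAAT box and the cell cycle gene homology region TTTGAA. It is the stretch from 250 bases before to 50 after the gene start as RefSeq gives it on build GRCm38.p6, chr7:135716330-135716629, minus strand, with the 3 matches of CCAAT and the 2 of TTTGAA in capitals (ATTGG is CCAAT on the other strand).
Mki67 promoter: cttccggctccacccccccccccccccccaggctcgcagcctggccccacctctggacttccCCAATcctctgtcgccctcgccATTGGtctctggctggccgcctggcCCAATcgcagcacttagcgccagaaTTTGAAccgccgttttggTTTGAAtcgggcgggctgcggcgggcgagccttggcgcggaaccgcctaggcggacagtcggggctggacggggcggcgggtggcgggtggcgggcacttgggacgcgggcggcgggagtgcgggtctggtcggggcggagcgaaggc
Both strands were searched, and the motifs do not overlap each other here. Of the 32 cell cycle genes that fell, 26 had a promoter in the table, of which 21 (80.8%) held CCAAT and 11 (42.3%) TTTGAA, against 41.1% and 20.2% of 27025 genes with a promoter of this length. In the whole list the counts were 21 and 11 of 27 genes with a promoter, so the shares describe the list and not the calls. A match is a description of these letters and does not show a bound site.

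Inhibitors of the cycle and p53 targets did not move together. Of 23 such genes 1 rose and 3 fell (4.35% and 13%, against 8.59% and 7.96% of all genes tested), with a median of -0.13. Cdkn1a, the inhibitor p21, had 211, 219 and 192 CPM alone and 241, 273 and 218 CPM in co-culture and was not called (0.23 ± 0.10, adjusted p = 0.114). Cdkn1b, the inhibitor p27, rose by 0.56 ± 0.16 (adjusted p = 0.0256), a call that was lost without alone replicate 1 or 3, or without co-culture replicate 1 or 3. Without alone replicate 1 none of the 3 lower calls, Bbc3, Aen and Trp53inp1, was kept, and without co-culture replicate 3 only 1 was.

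Genes of the hypoxia response and of glycolysis rose. Of 28 such genes, 22 rose and none fell, with a median of 0.56, and the 6 that were not called had differences between -0.05 and 0.26. Ndrg1, a stress-induced gene that is a standard readout of low oxygen, had 390.1, 444 and 399 CPM alone and 1732, 1247 and 1236 CPM in co-culture (1.77 ± 0.13, adjusted p = 6.23e-08). Car9, the membrane carbonic anhydrase IX, had 16.2, 15.4 and 21.6 CPM alone and 62.6, 55.8 and 44.6 CPM in co-culture (1.62 ± 0.16, adjusted p = 1.6e-06). In both genes the lowest co-culture library was more than 2-fold above the highest library alone. Pfkfb3, which makes the activator of phosphofructokinase, rose from 54.4, 61.5 and 63.6 to 171, 129 and 133 CPM (1.27 ± 0.11, adjusted p = 5.65e-07).

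Regulators and effectors of the response were among the genes that rose: the oxygen sensors Egln3 (0.99 ± 0.09) and Egln1 (0.72 ± 0.17), the mitophagy receptor Bnip3 (1.13 ± 0.10), the oxidoreductase Ero1a (1.13 ± 0.11), the collagen prolyl hydroxylase P4ha1 (0.81 ± 0.09) and the glucose transporter Slc2a1 (0.64 ± 0.10). Along the glycolytic chain the differences were 0.85 ± 0.11 for Gpi1, 0.59 ± 0.13 for Aldoa, 0.54 ± 0.13 for Gapdh and 0.54 ± 0.11 for Pgk1, all called. Ldha (0.23 ± 0.13, adjusted p = 0.268), Pkm (0.13 ± 0.12, adjusted p = 0.542) and Eno1 (-0.05 ± 0.12, adjusted p = 0.85) were not called. Eno1 and other glycolytic genes have near-identical pseudogene copies, among which reads may have been divided. Leaving out single libraries left 19 to 22 of the list called and estimating the spread over 12 libraries left 6, and the stellate share times HSC level was 0.350% of the increase for Ndrg1, 0.216% for Car9 and 0.353% for Pfkfb3.

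Promoters of Car9 and Pfkfb3 are shown because they hold the core of the hypoxia response element, ACGTG, close to the gene start. The RefSeq sequences are from GRCm38.p6, with matches on either strand in capitals (CACGT is ACGTG on the other strand, and CACGTG holds both). Car9 lies at chr4:43506776-43507075 on the plus strand, and the 2 starts of Pfkfb3 at chr2:11502041-11502340 and chr2:11553880-11554179, both on the minus strand.
Car9 promoter: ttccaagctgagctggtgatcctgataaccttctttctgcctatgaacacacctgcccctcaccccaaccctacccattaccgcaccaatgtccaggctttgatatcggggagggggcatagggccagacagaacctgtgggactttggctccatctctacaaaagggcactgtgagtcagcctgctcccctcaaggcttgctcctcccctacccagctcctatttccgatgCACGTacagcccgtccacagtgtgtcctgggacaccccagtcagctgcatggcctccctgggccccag
Pfkfb3 promoter at the first start: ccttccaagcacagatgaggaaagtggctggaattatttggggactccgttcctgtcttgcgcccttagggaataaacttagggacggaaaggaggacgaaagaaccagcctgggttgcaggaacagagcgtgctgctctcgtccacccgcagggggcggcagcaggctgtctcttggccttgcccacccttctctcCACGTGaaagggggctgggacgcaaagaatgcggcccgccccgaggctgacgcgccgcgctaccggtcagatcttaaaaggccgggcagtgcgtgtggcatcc
Pfkfb3 promoter at the second start: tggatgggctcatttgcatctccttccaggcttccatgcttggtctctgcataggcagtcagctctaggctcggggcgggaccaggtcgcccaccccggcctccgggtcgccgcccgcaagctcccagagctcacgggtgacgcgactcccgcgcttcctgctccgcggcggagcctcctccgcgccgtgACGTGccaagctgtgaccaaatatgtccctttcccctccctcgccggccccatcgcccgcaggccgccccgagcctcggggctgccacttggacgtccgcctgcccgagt
ACGTG was found in 16 of the 21 called hypoxia and glycolysis genes that had a promoter in the table (76.2%), against 21.8% of the 27025 genes. In the whole list, called or not, 20 of 27 genes with a promoter held it, so the share describes the list and not the calls. In the Car9 promoter the match starts 18 bases before the gene start.

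**Figure D3:**
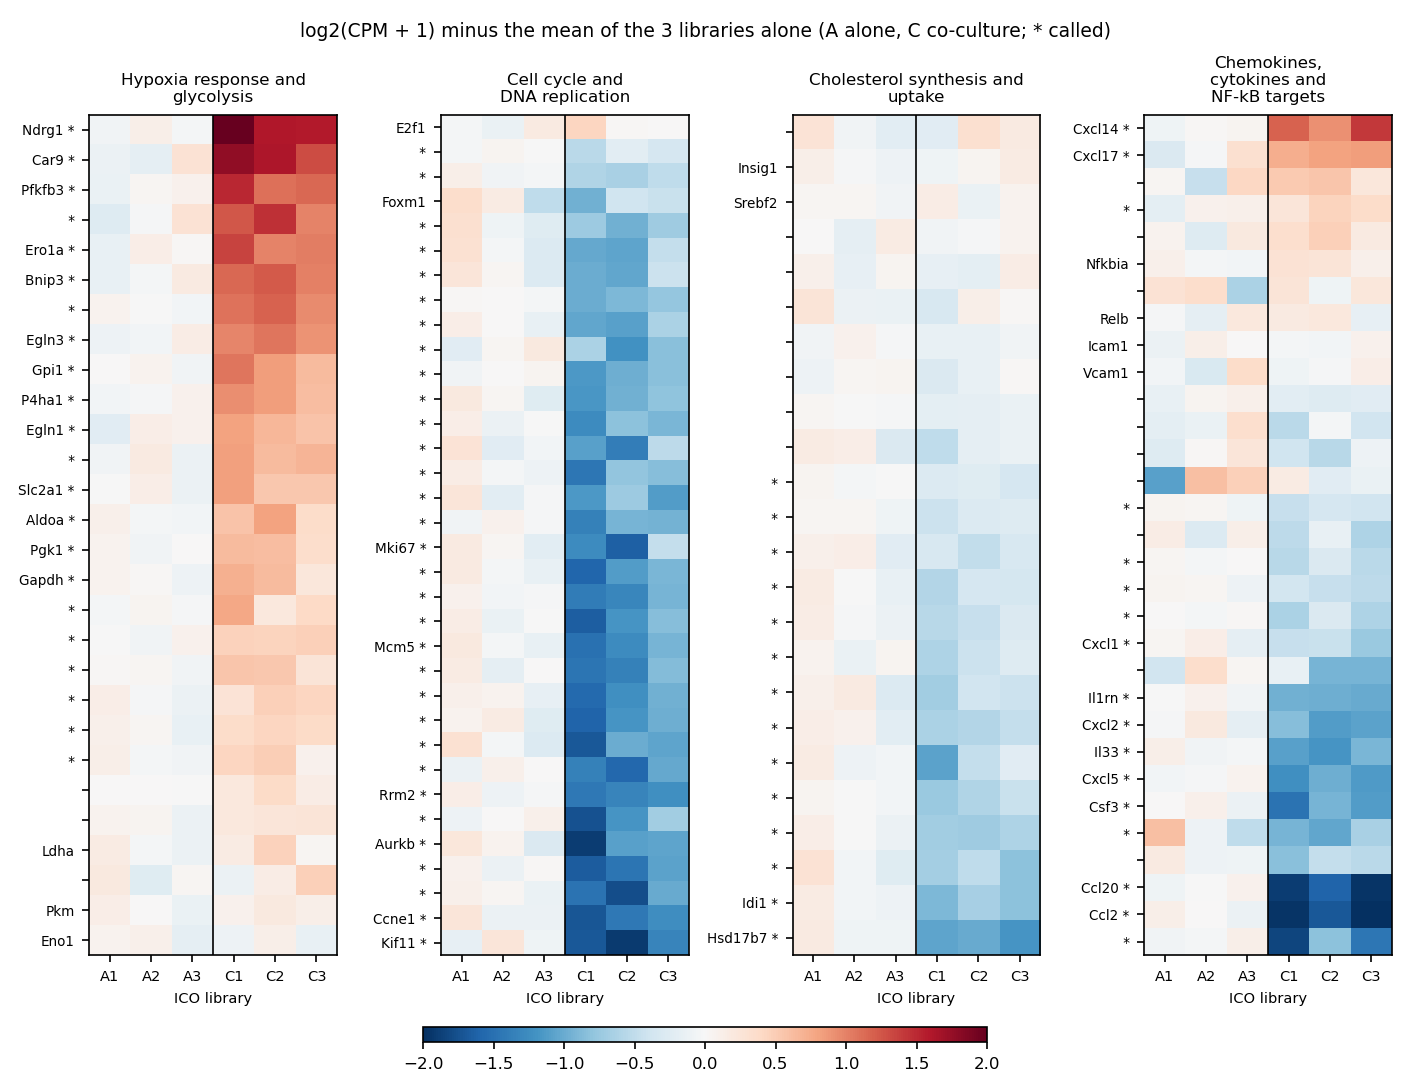
Colour gives log2(CPM + 1) in each ICO library minus the mean of the 3 libraries alone, for the tested members of 4 lists, with libraries alone (A1 to A3) left and co-culture libraries (C1 to C3) right of the line and an asterisk for genes that were called; rows of genes described in the text carry their names. Most hypoxia genes are red and most cell cycle genes blue in all 3 co-culture libraries, and cholesterol and chemokine genes are blue in part.

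Genes of cholesterol synthesis fell in part. Of 24 genes 14 fell and none rose, with a median of -0.35. Idi1, the isopentenyl diphosphate isomerase, had 285, 243 and 235 CPM alone and 135, 159 and 144 CPM in co-culture, without overlap (-0.80 ± 0.10, adjusted p = 1.94e-05). Hsd17b7, a later enzyme, fell by 1.13 ± 0.14 on the log2 scale. The regulators Srebf2 (0.04) and Insig1 (0.05) were not called. The count was 7 without alone replicate 1, 9 without alone replicate 2 and 1 with the spread of 12 libraries. Of 22 tested genes of fatty acid synthesis, storage and use, 7 fell and 2 rose. Elovl6, a fatty acid elongase, fell from 28, 22.7 and 16.3 to 9.22, 9.04 and 10.1 CPM, Fabp5, a fatty acid binding protein, from 52.9, 54.7 and 44.9 to 22.6, 24.2 and 21.3 CPM, and Fasn, the fatty acid synthase, differed by -0.67 ± 0.10, adjusted p = 0.000123. Me1, the malic enzyme that supplies NADPH, rose by 0.57 ± 0.09, and Pparg by 1.14 ± 0.37 at levels under 7 CPM, a call lost in 4 of the 6 fits with a library left out.

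Genes of serine synthesis, one-carbon metabolism and the ATF4 response moved in both directions. Of 25 genes 13 fell and 3 rose, with a median of -0.47. Phgdh, the first enzyme of serine synthesis, had 786, 704 and 578 CPM alone and 273, 358 and 331 CPM in co-culture (-1.10 ± 0.12, adjusted p = 7.68e-06). Its pathway partners Psat1 (-0.89 ± 0.13) and Psph (-0.81 ± 0.14) and the mitochondrial folate enzymes Shmt2 (-0.66 ± 0.10) and Mthfd2 (-0.77 ± 0.12) also fell. Slc7a11, the cystine transporter, had 28.6, 30 and 26.6 CPM alone and 14.5, 12.3 and 14.7 CPM in co-culture (-1.04 ± 0.15, adjusted p = 0.000123). Ddit3, the stress factor CHOP, went the other way, with 28.5, 44.4 and 28.1 CPM alone and 61.1, 49.4 and 59.4 CPM in co-culture (0.75 ± 0.16, adjusted p = 0.00329), as did Nupr1 (0.64 ± 0.11) and Vldlr (0.52 ± 0.11). Atf4 itself had a difference of -0.01 ± 0.10, adjusted p = 0.951. With the spread of 12 libraries 4 members were lower.

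The Slc7a11 promoter is shown because it holds the composite element that ATF4 binds with C/EBP factors, TGATGCAA, once on each strand. The RefSeq sequence is from GRCm38.p6, chr3:50443564-50443863, minus strand, with both matches in capitals (TTGCATCA is the other strand).
Slc7a11 promoter: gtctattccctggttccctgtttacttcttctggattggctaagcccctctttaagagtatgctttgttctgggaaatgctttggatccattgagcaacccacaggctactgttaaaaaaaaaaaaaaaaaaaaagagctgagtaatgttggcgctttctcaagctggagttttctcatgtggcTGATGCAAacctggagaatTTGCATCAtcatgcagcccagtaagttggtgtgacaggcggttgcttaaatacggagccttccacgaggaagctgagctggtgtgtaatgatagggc
Of the 12 genes of this list that fell and had a promoter in the table, 2 held this motif (16.7%), against 1.03% of 27025 genes. In the whole list, called or not, 4 of 20 genes with a promoter held it, so the motif was not particular to those that fell.

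Chemokine genes fell more often than they rose. Of 31 chemokine, cytokine and NF-kB target genes tested, 14 fell and 3 rose, with a median of -0.44, and 11 to 14 fell when single libraries were left out but 2 with the spread of 12 libraries. Ccl2, which attracts monocytes, had 307, 284 and 261 CPM alone and 72.1, 87.1 and 70.3 CPM in co-culture (-1.90 ± 0.10, adjusted p = 1.7e-09). Ccl20, a ligand for CCR6 made by epithelia, had 67, 70.9 and 75.8 CPM alone against 18.4, 22.8 and 17.6 CPM in co-culture (-1.86 ± 0.12, adjusted p = 2.18e-08). The groups were more than 2-fold apart in both genes. The neutrophil chemokines Cxcl5 (-1.11 ± 0.10, adjusted p = 5.83e-07), Cxcl2 (-1.05 ± 0.14, adjusted p = 5.26e-05) and Cxcl1 (-0.55 ± 0.10, adjusted p = 0.00118), the granulocyte factor Csf3 (-1.18 ± 0.13, adjusted p = 6.74e-06), the alarmin Il33 (-1.08 ± 0.11, adjusted p = 4.22e-06) and the receptor antagonist Il1rn (-0.99 ± 0.08, adjusted p = 4.02e-07) fell as well. Cxcl17, a mucosal chemokine, was higher, with 25.6, 30.9 and 39.5 CPM alone and 52.6, 55.8 and 56.7 CPM in co-culture (0.79 ± 0.14, adjusted p = 0.000598). Other NF-kB readouts were not called: Nfkbia (0.22 ± 0.09, adjusted p = 0.114), Icam1 (0.00 ± 0.09, adjusted p = 0.987), Vcam1 (-0.02 ± 0.13, adjusted p = 0.958) and Relb (0.08 ± 0.14, adjusted p = 0.776). Cxcl14 rose by 2.69 ± 0.57 at levels under 3 CPM and was among the 14 genes named for their stellate product.

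Complement and mucosal defence genes divided. Of 23 tested, 7 rose and 6 fell, with a median of 0.00. Lbp, the lipopolysaccharide binding protein, had 332, 346 and 353 CPM alone and 958, 815 and 766 CPM in co-culture, without overlap (1.30 ± 0.10, adjusted p = 1.6e-07). C4b, a component of the classical pathway, rose from 22.6, 44.3 and 37.1 to 86.5, 76.3 and 86.3 CPM (1.26 ± 0.19, adjusted p = 0.000655). C3, the central component, differed by 0.61 ± 0.10, adjusted p = 0.000481. C1s1, a protease of the classical pathway, fell from 11.3, 11.5 and 19.2 to 2.98, 5.83 and 3.15 CPM (-1.83 ± 0.29, adjusted p = 0.000282), the acute phase gene Saa3 fell by 1.18 ± 0.18 on the log2 scale, and the antiprotease Slpi fell by 0.79 ± 0.11. Reads of C4b may be shared with its copy C4a.

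Interferon-stimulated genes gave few calls that held. Of 29 tested, 5 were lower and 1 higher, with a median of -0.31, but leaving out single libraries left 0 to 4 lower: 1 without alone replicate 1, 3 without alone replicate 2, 2 without alone replicate 3, 4 without co-culture replicate 1, 2 without co-culture replicate 2 and 0 without co-culture replicate 3. Bst2, the antiviral tetherin, differed by -0.61 ± 0.16, adjusted p = 0.013, and Irf7 by -0.29 ± 0.30, adjusted p = 0.583. Of 18 MHC class I and peptide loading genes, 2 rose and 1 fell (1 rose without alone replicate 1 or 2 or co-culture replicate 1 or 2, and none fell without alone replicate 1 or 2 or co-culture replicate 1), with H2-T23 at 0.42 ± 0.10, adjusted p = 0.00554 and B2m, the light chain, at -0.07 ± 0.11, adjusted p = 0.728. In this MHC list 11.1% rose and 5.56% fell, against 8.59% and 7.96% of all genes tested.

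Squamous and mucosal stress genes rose in part. Of 28 tested, 11 rose and 1 fell, with a median of 0.15, and 6 rose without alone replicate 1. Ly6d, a surface protein of stratified and progenitor epithelia, had 62.1, 78 and 67.9 CPM alone and 225, 331 and 327 CPM in co-culture (2.09 ± 0.14, adjusted p = 1.39e-07). Every co-culture library was more than 2-fold above every library alone. The cornified envelope gene Sprr1a differed by 1.01 ± 0.19, adjusted p = 0.00464, and the trefoil peptides Tff2 and Tff3 by 0.83 ± 0.20, adjusted p = 0.00775 and 0.91 ± 0.27, adjusted p = 0.0285. Members of the Sprr2a group are near-identical, so that their separate values are uncertain. Krt23 fell by 0.46 ± 0.09 on the log2 scale.

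Genes of bile duct secretion and transport were measured for 16 of 26 members. Of these, 5 rose and 2 fell. Aqp1, a water channel of cholangiocytes, fell from 76.6, 72.9 and 67.1 to 33.3, 28.4 and 50.3 CPM (-0.94 ± 0.16, adjusted p = 0.000947), and Abcc4, an export pump, from 281, 244 and 296 to 188, 181 and 192 CPM (-0.55 ± 0.09, adjusted p = 0.000404). Abcc3, the basolateral bile acid exporter MRP3, rose from 142, 127 and 154 to 257, 235 and 254 CPM (0.82 ± 0.09, adjusted p = 8.11e-06), and the ion transport regulator Fxyd3 by 0.48 ± 0.10. The chloride channel gene Cftr (-0.27 ± 0.39, adjusted p = 0.711) and the anion exchanger gene Slc4a2 (-0.10 ± 0.11, adjusted p = 0.605) were not called. The number that rose was 2 without alone replicate 1 or co-culture replicate 3, and 3 without alone replicate 3 or co-culture replicate 1.

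Proteases and their inhibitors included large differences in both directions. Of 23 tested matrix proteases and inhibitors, 7 fell and 2 rose. The second that rose, Plat (0.27 ± 0.09, adjusted p = 0.0475), lost its call in all fits with a library left out except that without co-culture replicate 3. Beside Mmp7, which rose, the collagenase gene Mmp13 had 2.62, 2.61 and 0.98 CPM alone and 0, 0 and 0.207 CPM in co-culture. Serpinb2, the plasminogen activator inhibitor PAI-2, held 72 counts alone and 3 in co-culture over 3 libraries each, a ratio of 32.5 per unit of depth (95% interval 10.7 to 161, which covers counting error only). Plau, the urokinase, fell by 0.93 ± 0.17 in log2 (adjusted p = 0.0009), its receptor Plaur fell by 0.39 ± 0.10 (adjusted p = 0.0148), and the proteoglycan-cleaving Adamts9 fell by 1.07 ± 0.23 (adjusted p = 0.00276). Together with Serpine2, given above, 4 genes of plasminogen activation and its control were thus among those that fell. The tissue inhibitors Timp1 (0.30 ± 0.16, adjusted p = 0.212), Timp2 (0.11 ± 0.09, adjusted p = 0.468) and Timp3 (-0.04 ± 0.10, adjusted p = 0.864) were not.

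Basement membrane genes gave 7 increases and 1 decrease among 19 tested, with a median of 0.08. Lama3, a laminin chain of epithelia, had 43.8, 34.4 and 47 CPM alone and 85, 62 and 70 CPM in co-culture (0.79 ± 0.13, adjusted p = 0.000456), and its partner Lamb3 172, 181 and 166 CPM alone against 242, 251 and 222 CPM in co-culture (0.46 ± 0.09, adjusted p = 0.00111). The collagen IV chains Col4a1 (-0.20 ± 0.09, adjusted p = 0.167) and Col4a2 (0.00 ± 0.09, adjusted p = 0.994) were not called, and Col18a1 fell by 0.48 ± 0.10 on the log2 scale. The number that rose was 2 without alone replicate 2, and 4 without alone replicate 3, co-culture replicate 1 or co-culture replicate 3.

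Among 22 tested integrin and focal adhesion genes 4 rose and 2 fell (18.2% and 9.09%, against 8.59% and 7.96% of all genes tested). Lims2, the adaptor PINCH2, had 2.25, 1.96 and 4.1 CPM alone and 14.3, 14.9 and 10.3 CPM in co-culture (2.26 ± 0.29, adjusted p = 3.14e-05), while its paralog Lims1 had 121, 131 and 134 CPM alone against 113, 105 and 104 CPM in co-culture (-0.26 ± 0.09, adjusted p = 0.0451). The Lims1 call was lost in each of the 6 fits with a library left out and under the replicate block. Itgb5, an integrin chain that binds vitronectin, rose by 0.84 ± 0.15, and the adhesion protein tensin 1, Tns1, by 0.63 ± 0.10. With single libraries left out 0 or 1 of the list fell. None of 19 actin and contractile genes rose and 5 fell, among them the actin crosslinker Flna (-0.64 ± 0.10, adjusted p = 0.000334), Cald1 (-0.54 ± 0.10, adjusted p = 0.00106) and the non-muscle myosin Myh10 (-0.79 ± 0.20, adjusted p = 0.00894). That number was 3 without alone replicate 1 or 2, or without co-culture replicate 1 or 3.

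Genes of the mesenchymal transition did not move as a group, with 4 higher and 2 lower of 16. These were 25% and 12.5%, against 8.59% and 7.96% of all genes tested. Sparc, 1 of the 4, was among the 14 genes named for their stellate product. After subtraction of the stellate share 3 of the list were called higher. Vim, the mesenchymal intermediate filament, had 34.6, 28.5 and 22.6 CPM alone and 31.1, 31.7 and 29.1 CPM in co-culture (0.10 ± 0.15, adjusted p = 0.721). Cdh2, N-cadherin, fell from 29.6, 28.3 and 21.7 to 8.15, 11.4 and 9.66 CPM (-1.45 ± 0.18, adjusted p = 2.63e-05), and S100a4 fell by 1.79 ± 0.39, while Ovol1, a repressor of the transition, rose by 0.84 ± 0.16. Snai2 (-1.22 ± 0.49, adjusted p = 0.1) and Zeb1 (-0.82 ± 0.43, adjusted p = 0.222), transcription factors that drive it, were not called. Fn1, fibronectin, had 1657, 1504 and 1573 CPM alone and 2328, 2031 and 2124 CPM in co-culture (0.45 ± 0.11, adjusted p = 0.0079), and without alone replicate 2 only 2 of the list were called higher.

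Signals that the epithelium could send to stellate cells were read from 26 tested ligand genes, of which 8 rose and 5 fell. Adm, the vasodilator adrenomedullin, had 6.3, 5.63 and 9.44 CPM alone and 47.2, 41.1 and 39.6 CPM in co-culture (2.59 ± 0.18, adjusted p = 3.94e-08). Vegfa, the angiogenic growth factor, had 17.2, 17.3 and 18.5 CPM alone against 35, 44.6 and 37.1 CPM in co-culture (1.14 ± 0.14, adjusted p = 2.15e-05). Pdgfc, a ligand of the PDGF alpha receptor, had 25.6, 27.5 and 26.5 CPM alone against 55.7, 53.5 and 67.6 CPM in co-culture (1.15 ± 0.12, adjusted p = 4.23e-06). In these 3 genes the co-culture libraries were all higher than the libraries alone. Pdgfa (0.77 ± 0.13, adjusted p = 0.000354), Pdgfb (0.45 ± 0.13, adjusted p = 0.0233) and Pdgfd (0.47 ± 0.12, adjusted p = 0.0139) also rose, so that all 4 PDGF ligand genes were called higher. Sema3c, a guidance factor, fell from 334, 313 and 328 to 158, 151 and 180.4 CPM (-0.99 ± 0.09, adjusted p = 9.2e-07), and Gdf15 fell by 0.61 ± 0.12. The number that rose was 5 without alone replicate 1 or 2, and the number that fell was 3 without alone replicate 3 or co-culture replicate 3 and 2 without co-culture replicate 1.

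**Figure D4:**
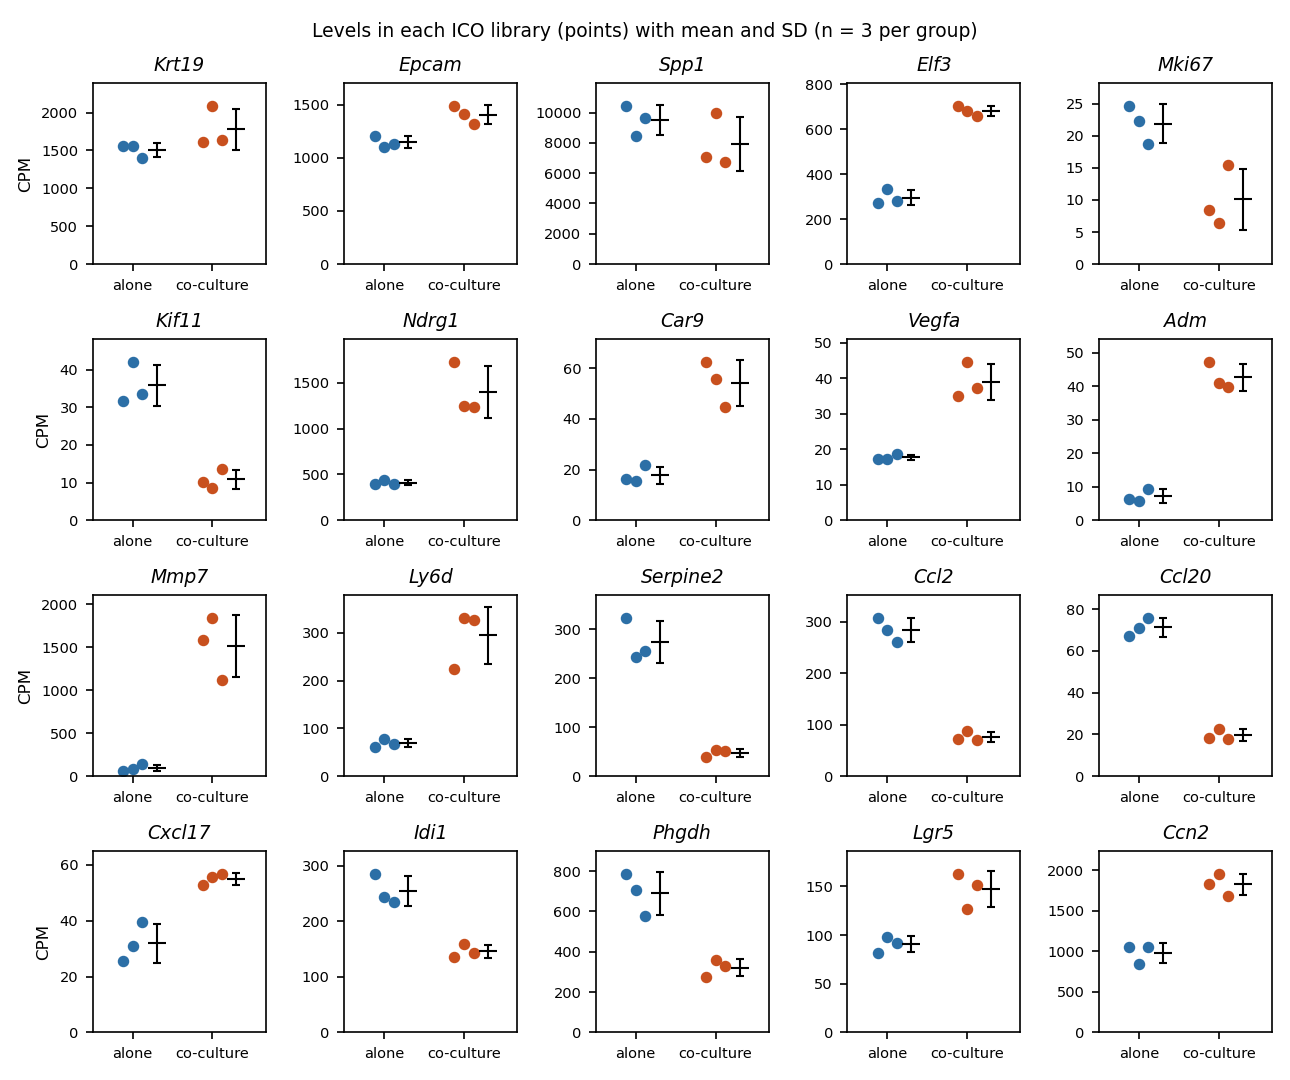
Points show CPM of 20 genes in the 3 libraries of ICO alone (blue) and the 3 from co-culture (orange), with the mean and SD as black marks beside them, and each panel starts at 0. Spp1 overlaps between the groups, Kif11, Ccl2, Ccl20, Serpine2, Idi1 and Phgdh are lower in co-culture, and Mmp7, Ly6d, Adm, Ndrg1 and Car9 are higher.

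Of the 19 tested TGF-beta ligands, receptors and targets, 5 rose and 2 fell. The feedback inhibitor Smad7 had 45.1, 41.7 and 47.4 CPM alone and 73.2, 71.5 and 68 CPM in co-culture (0.66 ± 0.10, adjusted p = 0.000188). The latent binding protein Ltbp3 rose by 0.64 ± 0.09 and the integrin chain Itgb6, which activates latent TGF-beta, by 0.46 ± 0.10. Inhba, which encodes the activin A subunit, fell from 50.1, 36.6 and 35.8 to 8.99, 14.6 and 10.4 CPM (-1.86 ± 0.18, adjusted p = 2.56e-06), and the receptor Tgfbr2 fell by 0.58 ± 0.09. Tgfb1 (0.59 ± 0.54, adjusted p = 0.53), Tgfb2 (0.23 ± 0.18, adjusted p = 0.439) and Pmepa1 (0.02 ± 0.09, adjusted p = 0.908) were not called. Of 14 BMP ligands and targets 5 rose and 1 fell: the targets Id1 (0.52 ± 0.10, adjusted p = 0.00164) and Id3 (0.51 ± 0.12, adjusted p = 0.00705) rose, and Fst, the secreted antagonist follistatin, fell from 54.6, 48.5 and 61.1 to 24, 25.8 and 22.2 CPM (-1.19 ± 0.12, adjusted p = 4.09e-06). The increases of Bmp2, Bmp7 and Atoh8 were at levels of at most 7.07 CPM, and with any 1 library left out only 2 or 3 of the list were called higher.

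EGF family ligands moved apart. Nrg1, the ErbB3 ligand neuregulin 1, fell from 17.7, 12.4 and 18.8 to 3.57, 7.29 and 3.77 CPM (-1.76 ± 0.27, adjusted p = 0.000202), and Ereg, epiregulin, from 54, 40.6 and 33.3 to 18.9, 19.3 and 16.4 CPM (-1.23 ± 0.16, adjusted p = 4.6e-05). Hbegf, in contrast, rose from 341, 377 and 339 to 556, 522 and 471 CPM (0.55 ± 0.10, adjusted p = 0.000581). Among the receptors Erbb3 rose by 0.66 ± 0.12 (adjusted p = 0.000884) and Egfr fell by 0.44 ± 0.11 in log2 (adjusted p = 0.00893). Of the 17 genes of this list, 5 rose and 4 fell, with 2 rising without alone replicate 1, 3 rising without alone replicate 2 or 3 or without co-culture replicate 1 or 3, and 2 falling without alone replicate 1. ERK feedback genes such as Dusp6 (0.12 ± 0.09, adjusted p = 0.426) and Spry2 (0.01 ± 0.09, adjusted p = 0.976) were not called, and of 19 in that list 1 rose and 2 fell (5.26% and 10.5%, against 8.59% and 7.96% of all genes tested).

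In the HGF, FGF and IGF list 4 of 19 rose and none fell. Hgfac, the protease that activates pro-HGF, had 15.1, 17.1 and 19.6 CPM alone and 68.7, 60.4 and 50.4 CPM in co-culture (1.79 ± 0.14, adjusted p = 1.68e-07). St14, the membrane protease matriptase, rose by 0.51 ± 0.09, the FGF receptor gene Fgfr4 by 0.85 ± 0.19, and the binding protein gene Igfbp4 by 0.50 ± 0.10. Met, the HGF receptor, had a difference of 0.00 ± 0.15, adjusted p = 0.996.

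YAP/TEAD targets did not move together: 5 of 26 rose and 4 fell, with a median of 0.08. These were 19.2% and 15.4%, against 8.59% and 7.96% of all genes tested. Ccn2, a matricellular protein and canonical target, had 1058, 839 and 1050.1 CPM alone and 1834, 1954 and 1688 CPM in co-culture (0.89 ± 0.12, adjusted p = 4.5e-05), without overlap. Ankrd1, another canonical target, fell from 714, 670.0 and 687 to 477, 502 and 444 CPM (-0.54 ± 0.09, adjusted p = 0.000545), and Ccn1 was not called (0.18 ± 0.11, adjusted p = 0.333). The list had 3 higher genes without alone replicate 1.

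Wnt, Notch and hedgehog genes were called in shares near the 16.6% of all tested genes. Lgr5, a receptor for R-spondins and a marker of epithelial progenitors, had 82, 98.5 and 91.9 CPM alone and 163, 127 and 151 CPM in co-culture, without overlap (0.70 ± 0.10, adjusted p = 0.000152). The general Wnt target Axin2 had 13.2, 13.1 and 17 CPM alone against 18.3, 16.6 and 16.3 CPM in co-culture and was not called (0.24 ± 0.17, adjusted p = 0.391), and Ccnd1, cyclin D1, fell from 637, 607 and 683 to 426, 502 and 423 CPM (-0.51 ± 0.10, adjusted p = 0.00147). Of 16 Wnt targets 2 rose and 1 fell, with 1 rising without co-culture replicate 2. Of 14 Notch genes 2 fell and none rose, with Dtx4 at -0.65 ± 0.11, adjusted p = 0.000522, the other call, Jag1 (-0.33 ± 0.10, adjusted p = 0.0363), lost in 5 of the 6 fits with a library left out, and the target Hes1 not called (0.23 ± 0.11, adjusted p = 0.195). Gas1 (-0.56 ± 0.16, adjusted p = 0.0244) was the 1 of 10 hedgehog genes called, and it lost that call in 4 of the 6 fits with a library left out.

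Retinoid genes included opposite changes in synthesis and breakdown. Aldh1a2, which makes retinoic acid, had 35.5, 25.5 and 31.7 CPM alone and 7.5, 6.42 and 9.92 CPM in co-culture (-1.95 ± 0.19, adjusted p = 1.64e-06). Cyp26b1, which degrades it, held 1 count in the 3 libraries alone and 148 in co-culture, a ratio of 109 per unit of depth (95% interval 19.3 to 4344, counting error only), and its levels in co-culture were 2.62, 2.77 and 3.41 CPM. Rbp4, the plasma retinol carrier, fell from 80.9, 81 and 73 to 34.3, 34.9 and 32.2 CPM (-1.21 ± 0.10, adjusted p = 3.76e-07), while its receptor Stra6 rose by 0.75 ± 0.11, the receptor Rara by 0.69 ± 0.13, and Tgm2, a retinoic acid target, from 311, 342 and 383 to 645, 623 and 660.4 CPM (0.90 ± 0.10, adjusted p = 5.81e-06). Of 18 genes tested 6 rose and 2 fell. The stellate product was 0.0233 CPM for Cyp26b1, and Rarres2, which also rose but lost its call in 3 of the 6 fits with a library left out, was among the 14 genes named for that product.

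Immediate-early genes rose in 10 of 20 cases and fell in none, with a median of 0.36. Klf4 had 38.1, 41.7 and 39.1 CPM alone and 67.3, 66.1 and 61.3 CPM in co-culture (0.71 ± 0.10, adjusted p = 0.000135), Klf2 rose by 0.98 ± 0.20, Fosb by 0.65 ± 0.11, Junb by 0.50 ± 0.11 and the phosphatase Dusp1 by 0.57 ± 0.11. Nr4a1 (-0.25 ± 0.10, adjusted p = 0.12) and Egr2 (0.31 ± 0.11, adjusted p = 0.0613) were not called. Without co-culture replicate 1 the number was 6.

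A few hepatocyte genes rose in organoids that otherwise had little hepatocyte RNA. Of 34 listed genes 13 could be tested, and the other 21 had at most 0.833 CPM in any library. Of the 13, 5 rose and 2 fell, and 3 rose without alone replicate 2. Ass1, argininosuccinate synthase of the urea cycle, had 125, 118 and 126 CPM alone and 483, 514 and 423 CPM in co-culture (1.95 ± 0.10, adjusted p = 8.96e-10). Fga, the fibrinogen alpha chain, had 4.2, 9.87 and 8.1 CPM alone against 25.7, 29 and 36.8 CPM in co-culture (2.05 ± 0.24, adjusted p = 3.32e-05), and Ttr, transthyretin, 1.65, 4.82 and 4.27 CPM alone against 10.5, 9.92 and 14.2 CPM in co-culture (1.70 ± 0.31, adjusted p = 0.00106). Alb, the most abundant hepatocyte transcript in liver, had 2.62, 2.45 and 1.51 CPM alone against 0.357, 1.09 and 2.94 CPM in co-culture and was not called (-0.56 ± 0.58, adjusted p = 0.576), and Hnf4a, the hepatocyte transcription factor, was lower (-0.44 ± 0.11, adjusted p = 0.01), a call lost without alone replicate 1 (adjusted p = 0.0883) or co-culture replicate 1 (0.0658). Ass1 thus accounted for most of the increase in the summed hepatocyte transcripts given above.

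**Figure D5:**
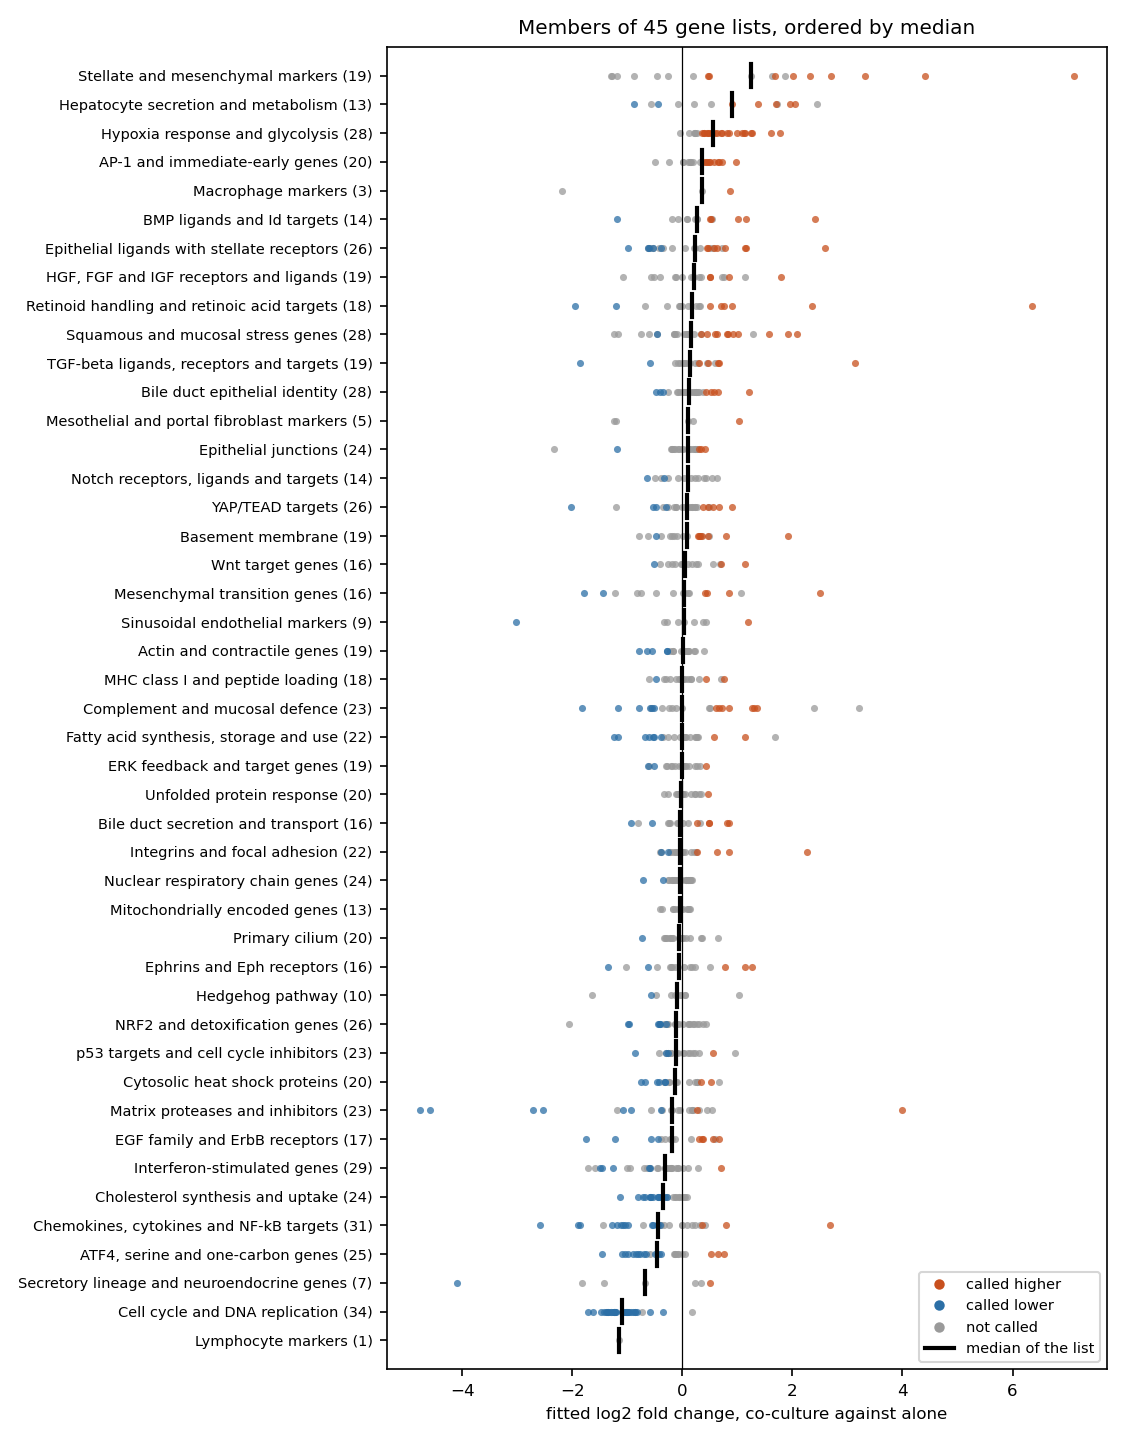
Each point is a tested gene of 1 of 45 lists, at its fitted log2 fold change, with orange for genes called higher, blue for genes called lower, grey for genes not called, a black bar for the median and the number tested in brackets. Hypoxia genes lie to the right and cell cycle, chemokine and cholesterol genes to the left of 0, and the stellate list spreads from below 0 to Col3a1.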

How the data were processed

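Bulk Smart-seq2 libraries of mouse cholangiocyte organoids and stellate cells were sorted before lysis, per the labels' protocols. The authors deposited 1 table of estimated counts per gene, whose values are not all whole numbers, and GRCm39, kallisto 0.46.1 and DESeq2 1.36.0 are named per the submitters' processing notes. The role of each is not given in the sources used here. Filters, multi-mapping and strand handling by the authors are likewise not given there.

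The estimated counts were rounded to whole numbers. In R 4.3.3, edgeR 4.0.16 with TMM scaling, filterByExpr and a robust quasi-likelihood fit compared the 6 organoid libraries without a covariate, with Benjamini-Hochberg adjustment over the 13726 genes tested of 35667. The SE is the absolute log2 fold change divided by the square root of F. CPM of the HSC, and the CPM behind the stellate share, use plain totals. On simulated data of 13452 genes, the fit recovered 33.8% of genes changed 1.5-fold, 73.8% of those changed 2-fold and 90.9% of those changed 4-fold, and 7.14% of its calls were false. The simulation changed 200 genes, a far smaller share than the 16.6% called in the data. Its rates therefore need not hold for this comparison. Counting intervals are at 95% and cover counting error only. Single values were compared by exact permutation tests.

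The members and the 45 lists were chosen with earlier results of these data known. Named genes were those called whose libraries did not overlap between groups and averaged at least 10 CPM in 1 of them, the 15 largest changes in each direction (leaving out Gm and Rik names, pseudogenes and receptor segments), the 3 largest called changes in each direction of each list, the 2 most abundant members of a list with no call, and fixed markers. Of those 190 genes, 138 had a promoter in RefSeq on GRCm38.p6. Other list members, and the promoters shown, were chosen after their values were seen. Alternatives were RLE and upper-quartile scaling, DESeq2 1.42.0, 2 other count filters, fits over 12 and 18 libraries, a replicate block, subtraction of the stellate share, and leaving out each library. Figures were drawn with matplotlib 3.10.9. Some genes that the rule names are not reported here.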

Additional observations from a re-analysis of the deposited data

How the results depend on the processing

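Of 174 called genes named by rule, 140 could be fitted under every alternative, and 110 of these kept their call under all of them other than the fits with a spread shared across cell types. Of the 34 that some alternative could not fit, 15 kept it wherever fitted. Col3a1, Col1a2, Sparc, Acta2, Cxcl14 and Rarres2 had no testable counts left after subtraction of the stellate share. With a shared spread 37 (12 libraries) and 59 (18 libraries) of the 174 kept their call, and all 174 kept their direction in those fits. Higher and lower calls numbered 1160 and 1114 with RLE scaling, 1196 and 1073 with upper-quartile scaling, 1231 and 1183 with DESeq2, 1419 and 1185 without the low-count filter, 117 and 92 over 12 libraries, 308 and 238 over 18 libraries, and 211 and 310 where a 2-fold difference was also asked. With single libraries left out they ranged from 763 to 1005 and from 664 to 966. At least 2-fold higher and lower calls were 93 and 140 with a filter of 10 CPM in 3 libraries, 58 and 57 over 12 libraries and 101 and 132 over 18 libraries. The log2 difference of Col1a1 was -1.20 after subtraction of the stellate share, and the difference of summed macrophage transcripts, -9.52 CPM with all libraries, ranged from -21.5 to 0.772 CPM, the latter without alone replicate 1. Deviations from the group means were hardly correlated between libraries of the same replicate number (-0.0362, -0.0315 and -0.0502). Whether the numbers pair the samples cannot be told from these values. A replicate block gave 1053 higher and 997 lower calls, 1997 genes shared with the 2272. Apart from steps shown above the cause of these shifts was not tested. With 3 libraries a group and the deeper libraries all in co-culture, small changes are the least certain, and depth and culture cannot be told apart.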

Other observations

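Of 16 tested genes of ephrins and their receptors, which sort cells at tissue borders, 3 were higher and 2 lower. These were 18.8% and 12.5%, against 8.59% and 7.96% of all genes tested. Efna1, a membrane-anchored ligand, had 70.9, 70.1 and 69.6 CPM alone and 174, 171 and 163 CPM in co-culture (1.27 ± 0.08, adjusted p = 2.18e-08). The receptor gene Ephb6 rose by 0.77 ± 0.13 (adjusted p = 0.000427), and the receptor genes Epha4 (-0.63 ± 0.12, adjusted p = 0.000981) and Epha7 (-1.35 ± 0.31, adjusted p = 0.00516) fell. Protein folding genes fell more often than they rose, with 6 of 20 heat shock genes lower and 2 higher, and 4 lower without alone replicate 1, 2 or 3 or co-culture replicate 1 or 3. Hspd1, the mitochondrial chaperonin HSP60, had 350.5, 338 and 327 CPM alone and 198, 197 and 210.0 CPM in co-culture (-0.75 ± 0.08, adjusted p = 9.52e-06), and its partner Hspe1 fell by 0.45 ± 0.09. Hspb1, the small heat shock protein HSP27, went the other way (0.53 ± 0.10, adjusted p = 0.00101). In the endoplasmic reticulum list 1 of 20 genes rose, Dnajb9 (0.47 ± 0.10, adjusted p = 0.0029), and the chaperone gene Hspa5 was not called (0.04 ± 0.10, adjusted p = 0.853).

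Of 26 NRF2 targets and detoxification genes, 7 fell and none rose, with 4 lower without alone replicate 1. The pentose phosphate enzymes G6pdx (-0.43 ± 0.09, adjusted p = 0.00319) and Pgd (-0.44 ± 0.09, adjusted p = 0.00253) and the aldehyde dehydrogenase gene Aldh3a1 (-0.97 ± 0.19, adjusted p = 0.00205) were among them, while the NRF2 readout Nqo1 was not called (-2.05 ± 0.72, adjusted p = 0.0611). Of 24 nuclear respiratory chain genes 2 fell (8.33%, against 7.96% of all genes tested), and 5 were lower without co-culture replicate 2. The 2 were Cycs, which encodes cytochrome c (-0.71 ± 0.09, adjusted p = 4.25e-05), and Ndufa4 (-0.36 ± 0.10, adjusted p = 0.0161). Agr2, a disulfide isomerase of mucous cells, held 82 counts alone and 6 in co-culture, at 3.97, 1.22 and 1.25 CPM and 0, 0.0729 and 0.258 CPM (-4.10 ± 0.80, adjusted p = 0.00158), and Dclk1, a marker of tuft cells, rose by 0.49 ± 0.10. Of 20 primary cilium genes, a structure cholangiocytes bear, 1 fell (5%). Of 24 junction genes 3 rose and 1 fell (12.5% and 4.17%), with none higher without co-culture replicate 1 and 1 without alone replicate 1 or 3. Over all genes tested, 8.59% rose and 7.96% fell.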
